A study of Mus musculus with 4 samples.

Results

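The sarcomere scaffold, Z disc and M band genes are a set of 47 mouse genes that encode the framework of the striated muscle sarcomere, listed by name for this role. All 47 were found among the 21878 genes of the mRNA table, with 250 transcript models, and 9 of 4295 circular RNAs (circRNAs) had a member as host gene. The values of all transcripts of a gene were summed.

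The sarcomere is the contractile unit of striated muscle. Thin actin filaments are anchored at its ends in the Z disc, thick myosin filaments are tied together in its middle at the M band, and titin spans the distance between them. Many of these proteins are nearly restricted to skeletal and heart muscle, while several LIM domain, filamin and chaperone members are also made by connective tissue cells.

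C3H10T1/2 is a mesenchymal cell line from mouse embryos, and 5-azacytidine (5-AZA), an inhibitor of DNA methylation, has long been used to turn such cells into muscle-like cells. RNA from 2 untreated samples (replicates 1 and 2) and 2 samples treated with 5-AZA (replicates 101 and 102) was sequenced after removal of ribosomal RNA. The treated cells received 20 µM 5-AZA for 72 h and then grew for 21 days in fresh medium. The labels give no culture time for the untreated cells, so that treatment and time in culture cannot be told apart, and myotube-like cells were also picked and subcloned in this study, without it being stated whether the sequenced samples came from picked cells. Levels are FPKM (fragments scaled to transcript length and to the size of the library), summed per gene, and their sums over all transcripts were 343955, 334568, 328410 and 361664 in untreated 1, untreated 2, 5-AZA 101 and 5-AZA 102. The number of fragments behind the FPKM values is not stated. The step of the circRNA values of the same libraries, taken as 1 read, stands for a total of 92975678, 93426482, 92903364 and 93920706 reads in the same order. The study calls the replicates biological repeats, the labels do not say how the cultures were kept apart, and p-values measure the spread between these samples.

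Most of the framework was near absent in untreated cells and present after 5-AZA. Of the 47 members, 34 were called higher and 0 lower, against 13.1% of 13199 genes tested called higher and 1.32% called lower. A gene was called at an adjusted p below 0.05 (limma, Benjamini-Hochberg over all genes tested) and a change over 2-fold on the log2(FPKM + 0.1) scale, a scale that understates the change of low genes. Where counts say that genes rose or fell, they mean these calls. Both 5-AZA samples lay above both untreated samples in 43 members and below them in 2, against 36.8% and 25.4% of all genes tested, and the groups overlapped in 2. The 43 include 3 members that were not tested and 21 that had to differ, as given below. A total of 10 members reached 1 FPKM in both untreated samples, and 39 did so in both 5-AZA samples. The median change over all 47 was 3.82 on the log2 scale, beside 0.05 over all genes tested. Of the 47, 8 were listed at 0 in both untreated samples, and the fitted change of such a gene depends on the pseudocount. In bulk RNA, fewer cells of a type and less RNA per cell cannot be told apart, so the levels do not say what share of the cells made these transcripts.

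The limit of a mean of 0.1 FPKM over the 4 samples left out 3 members, Mybpc3, Myoz3 and Xirp2. Of the 44 tested, 21 passed this limit only through their 5-AZA values and so had to differ, and all 21 were called. The other 23 had an untreated mean at or above the limit, and 13 of them were called higher and 10 were not called, beside 7.41% called higher of the 12130 genes with such an untreated mean. With 2 samples against 2, the smallest two-sided p of an exact permutation test is 0.333, so that no single gene could reach 0.05 by permutation.

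**Figure D1:**
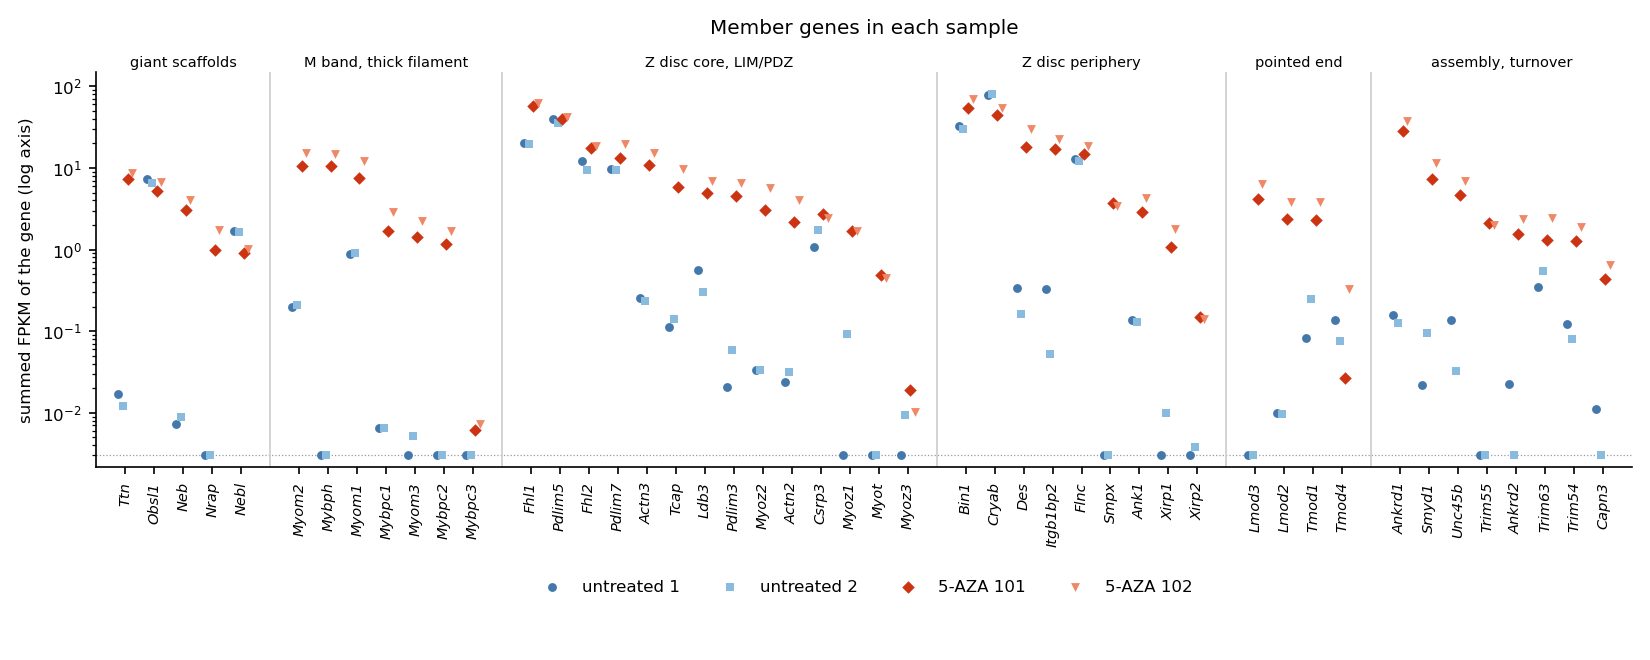
Summed FPKM of the 47 members (log axis) in untreated 1 and 2 (circles, squares) and 5-AZA 101 and 102 (diamonds, triangles), grouped by role. Values below 0.003 FPKM, 0 included, are drawn at 0.003, and most members form a low untreated pair and a high 5-AZA pair.

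The promoters of Ankrd1, Mybph, Ttn and Des, the 4 with the largest fitted changes at a pseudocount of 0.1 FPKM among members with 1 promoter entry, are shown because these genes rose together. Each line gives the 250 bases before the annotated start in RefSeq (GRCm38.p6), read 5′ to 3′ on the gene's own strand. The regions are chr19:36119845-36120094 (minus strand), chr1:134193198-134193447 (plus strand), chr2:76982548-76982797 (minus strand) and chr1:75360042-75360291 (plus strand). Capitals mark E boxes (CANNTG, the sequence that myogenic basic helix-loop-helix factors bind) and, in Ttn, a match to the MEF2 consensus.
Ankrd1: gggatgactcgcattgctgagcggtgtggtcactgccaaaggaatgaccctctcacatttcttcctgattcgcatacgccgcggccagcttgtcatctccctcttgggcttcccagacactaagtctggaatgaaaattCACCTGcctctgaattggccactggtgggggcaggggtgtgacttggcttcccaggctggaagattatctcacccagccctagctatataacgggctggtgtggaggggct
Mybph: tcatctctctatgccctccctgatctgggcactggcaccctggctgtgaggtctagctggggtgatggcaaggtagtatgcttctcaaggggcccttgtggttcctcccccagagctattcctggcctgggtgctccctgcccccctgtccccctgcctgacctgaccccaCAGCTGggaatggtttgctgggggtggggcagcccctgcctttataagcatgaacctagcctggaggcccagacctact
Ttn: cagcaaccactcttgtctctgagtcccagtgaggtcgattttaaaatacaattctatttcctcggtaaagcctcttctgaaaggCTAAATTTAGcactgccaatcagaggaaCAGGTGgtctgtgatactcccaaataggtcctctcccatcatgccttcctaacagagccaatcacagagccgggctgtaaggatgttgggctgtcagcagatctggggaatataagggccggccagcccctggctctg
Des: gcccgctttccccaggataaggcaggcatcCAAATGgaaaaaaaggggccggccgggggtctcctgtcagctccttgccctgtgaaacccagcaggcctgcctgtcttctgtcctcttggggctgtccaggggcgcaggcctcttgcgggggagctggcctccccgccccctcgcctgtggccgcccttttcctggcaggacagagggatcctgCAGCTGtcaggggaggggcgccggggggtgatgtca

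Of the 47 members, 33 had a promoter entry, 43 entries in all. Both strands of the 250 bases before each start were searched. CANNTG was in 32 of the 43 entries (74.4%) and in 66.2% of all 32851 promoters of the table. Its form CAGCTG was in 11 entries (25.6%, against 13% of all promoters) and its form CACCTG in 12 (27.9%, against 17.2%). Both forms are themselves CANNTG. The MEF2 consensus was in 7 entries (16.3%, against 2.92%), those of Capn3, Fhl2, Mybpc3, Myom3, Myoz2, Ttn and Xirp2. The CArG box, the element of serum response factor, was also in 7 entries (16.3%, against 1.47%), of Fhl1, Fhl2, Ldb3, Myom1 and Nebl. These are matches of letters, not sites shown to be bound, and were not tested.

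Among the giant scaffolds and nebulin family, Ttn, Neb and Nrap rose, and Nebl and Obsl1 were not called. All 3 called genes passed the limit only through their 5-AZA values and so had to differ. Ttn encodes titin, the elastic protein that runs from Z disc to M band and sets the order of the thick filament. It was listed at 0.0168 and 0.0120 FPKM in the untreated samples and 7.24 and 8.59 FPKM after 5-AZA. Both untreated values were close to 0 and both treated values were well apart from them, with a change of 6.13 ± 0.26 (log2, SE, n = 2 per group, adjusted p = 1.35e-06, limma). Neb, which encodes the nebulin that lies along the thin filament, went from 0.00734 and 0.00900 to 3.03 and 4.04 FPKM (5.06 ± 0.30, adjusted p = 7.04e-06, limma). Nrap, a nebulin relative that takes part in myofibril assembly, was listed at 0 in both untreated samples and at 0.978 and 1.72 FPKM after 5-AZA.

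The relatives that are less bound to skeletal muscle had other values. Nebl, whose product nebulette is the short nebulin relative of heart muscle, was at 1.70 and 1.65 FPKM in the untreated samples and 0.905 and 1.02 FPKM after 5-AZA. The treated pair lay below the untreated pair, at a change of -0.74 ± 0.23 (adjusted p = 0.0488, limma), which is less than 2-fold. Obsl1, a relative of obscurin found in many tissues, was at 7.28 and 6.53 FPKM in the untreated samples and 5.23 and 6.70 FPKM after 5-AZA, and its groups overlapped. Nebl was called lower after quantile normalization, at a change of -1.45 (adjusted p = 0.00367, limma). With any 1 sample left out its adjusted p lay between 0.127 and 0.203 (limma), and it was also above 0.05 with curated transcripts only, a mean of at least 1 FPKM, no limit on low values or a pseudocount of 0.01 FPKM.

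All 6 tested genes of the M band and the thick filament rose, beside 13.1% of all genes tested. Of the 6, 4 passed the limit only through their 5-AZA values and so had to differ: Myom3, Mybph, Mybpc1 and Mybpc2. Myomesins cross-link the thick filaments at the M band. Myom2 was at 0.200 and 0.212 FPKM in the untreated samples and 10.4 and 15.2 FPKM after 5-AZA, and Myom1 at 0.895 and 0.90 FPKM in the untreated samples and 7.49 and 12.1 FPKM after 5-AZA. Of the members called, Myom1 had the highest untreated level after Fhl1, and its change was 3.27 ± 0.24 (adjusted p = 2.38e-05, limma), against 5.38 ± 0.24 for Myom2. Myom3 went from 0 and 0.00512 to 1.44 and 2.26 FPKM.

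The myosin-binding proteins bind the thick filament to the side of the M band. Mybph, the H form, was listed at 0 in both untreated samples and at 10.7 and 14.8 FPKM after 5-AZA (higher in 2 of 2 samples, adjusted p = 7.62e-07, limma). Mybpc1, the slow skeletal C form, was at 0.00644 and 0.00642 FPKM in the untreated samples and 1.68 and 2.85 FPKM after 5-AZA. Mybpc2, the fast skeletal form, was listed at 0 in both untreated samples and at 1.16 and 1.67 FPKM after 5-AZA. Both skeletal forms were thus detected after treatment, with Mybpc1 the higher in both 5-AZA samples, a difference that was not tested. Mybpc3, the cardiac form, was listed at 0 in both untreated samples and at 0.00614 and 0.00733 FPKM after 5-AZA, and was too low to be tested.

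**Figure D2:**
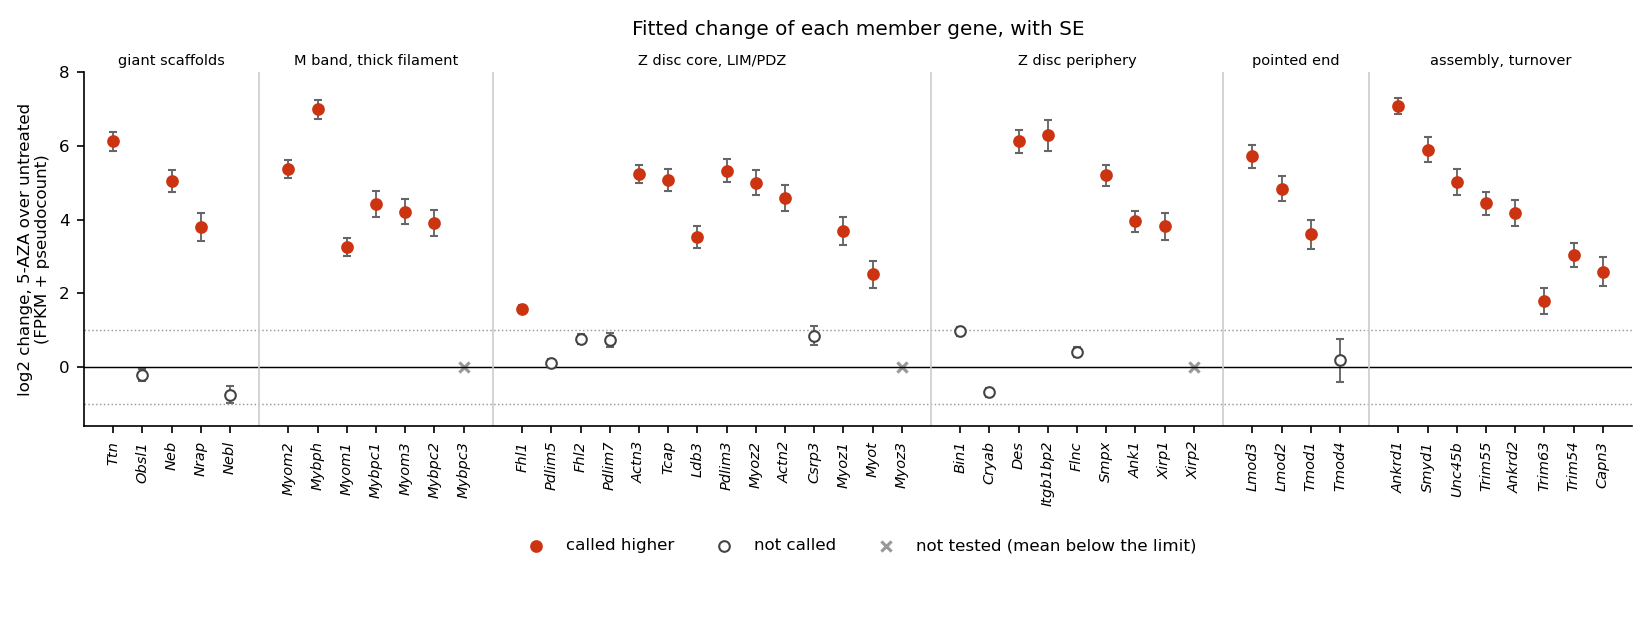
Fitted log2 change of each member (5-AZA over untreated, FPKM + 0.1) with its SE, grouped by role. Filled points were called higher, open points were not called, crosses on the line of 0 stand for the 3 members not tested and carry no value, and dotted lines mark 2-fold. Changes of called members lie between 1.58 and 7.09.

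In the Z disc core, 9 of 14 members rose, beside 13.1% of all genes tested, and the genes for proteins that hold actin filaments in the disc were among them. Of the 9, 5 passed the limit only through their 5-AZA values and so had to differ: Actn2, Pdlim3, Myoz1, Myoz2 and Myot. Alpha-actinins cross-link the ends of the thin filaments. Actn3, the form of fast fibres, was at 0.256 and 0.235 FPKM in the untreated samples and 10.7 and 15.5 FPKM after 5-AZA, and Actn2, the form of all striated fibres, at 0.0239 and 0.0316 FPKM in the untreated samples and 2.18 and 4.07 FPKM after 5-AZA. Both were higher in each treated sample, with changes of 5.23 ± 0.24 and 4.59 ± 0.36 (adjusted p = 1.91e-06 and 3.11e-05, limma). Tcap encodes telethonin, which caps a pair of titin ends in the Z disc, and went from 0.114 and 0.140 to 5.80 and 9.67 FPKM (5.07 ± 0.29, adjusted p = 6.1e-06, limma).

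The PDZ and LIM domain adaptors bind alpha-actinin. Ldb3 was at 0.554 and 0.305 FPKM in the untreated samples and 4.90 and 6.91 FPKM after 5-AZA, and Pdlim3 at 0.0208 and 0.0586 FPKM in the untreated samples and 4.51 and 6.60 FPKM after 5-AZA. Both rose, by 3.52 ± 0.30 and 5.33 ± 0.31 (adjusted p = 4.88e-05 and 5.89e-06, limma). Pdlim5 was already among the most abundant members in untreated cells, at 39.6 and 35.5 FPKM in the untreated samples and 39.8 and 42.0 FPKM after 5-AZA, and its change of 0.12 ± 0.10 did not pass the test (adjusted p = 0.446, limma). Pdlim7 was at 9.74 and 9.45 FPKM in the untreated samples and 13.2 and 19.5 FPKM after 5-AZA. Its treated values were both higher, at a change of 0.74 ± 0.18 that is less than 2-fold (adjusted p = 0.0173, limma). It was called higher with curated transcripts only (1.14) and without 5-AZA replicate 101 (1.01), and over all alternatives its adjusted p lay between 0.00891 and 0.178 (limma).

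The myozenins tie calcineurin and alpha-actinin to the Z disc, and myotilin bundles actin there. Myoz2 went from 0.0338 and 0.0334 to 3.05 and 5.74 FPKM, and Myoz1 from 0 and 0.0923 to 1.69 and 1.71 FPKM. Myot was listed at 0 in both untreated samples and at 0.494 and 0.451 FPKM after 5-AZA, the lowest treated level among the called members together with Capn3. These 3 genes were called higher, while Myoz3 reached at most 0.0191 FPKM in a sample and was not tested.

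The LIM-only members differed among themselves. Fhl1, a LIM protein of skeletal muscle and of many other cells, was the most abundant called member at 20.5 and 19.6 FPKM in the untreated samples and 57.8 and 62.3 FPKM after 5-AZA. Its pairs were tight and apart, with a change of 1.58 ± 0.10 (adjusted p = 9.89e-06, limma). Fhl2, the relative best known from heart muscle, was at 12.1 and 9.36 FPKM in the untreated samples and 17.6 and 18.8 FPKM after 5-AZA, and its change of 0.77 ± 0.15 was less than 2-fold (adjusted p = 0.00527, limma). The adjusted p of Fhl2 was 0.171 and 0.204 without 5-AZA replicates 101 and 102 and 0.0964 with no limit on low values (limma). Csrp3, the muscle LIM protein, was at 1.09 and 1.75 FPKM in the untreated samples and 2.75 and 2.42 FPKM after 5-AZA (0.85 ± 0.26, adjusted p = 0.0447, limma). Its untreated samples differed by nearly as much as the groups did, and without untreated replicate 2 it was called higher (1.17, adjusted p = 0.00767, limma). Without untreated replicate 1 its change was 0.53 and after quantile normalization 0.42 (adjusted p = 0.27 and 0.252, limma), and over all alternatives its adjusted p reached 0.333 (limma).

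Around the Z disc, 5 of 9 members rose, beside 13.1% of all genes tested. Smpx and Xirp1 passed the limit only through their 5-AZA values and so had to differ. Desmin, the intermediate filament protein of muscle encoded by Des, links neighbouring discs. Des was at 0.335 and 0.162 FPKM in the untreated samples and 18.1 and 30.2 FPKM after 5-AZA, a change of 6.12 ± 0.31 (adjusted p = 3.27e-06, limma). Itgb1bp2 encodes melusin, a muscle protein that binds integrin, and was at 0.328 and 0.0529 FPKM in the untreated samples and 17.2 and 22.9 FPKM after 5-AZA. The untreated samples of Itgb1bp2 were far apart on the log scale, and its SE was the largest of the called members (6.29 ± 0.42, adjusted p = 1.35e-05, limma).

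Smpx, a small muscle protein of the costamere, was listed at 0 in both untreated samples and at 3.72 and 3.44 FPKM after 5-AZA. Ank1, whose short muscle forms tie the sarcoplasmic reticulum to the myofibril, went from 0.135 and 0.130 to 2.91 and 4.24 FPKM. Xirp1, an actin-binding Xin repeat protein, went from 0 and 0.00991 to 1.06 and 1.79 FPKM, and these 3 genes were called higher. Xirp2 was listed at 0 and 0.00386 FPKM in the untreated samples and at 0.147 and 0.142 FPKM after 5-AZA, and its mean was below the limit. With no limit on low values 33 of the 47 members were called higher, beside 1179 of all 17510 genes tested. Of the 33, 32 were among the 34. The other was Xirp2, the only untested member with a change over 2-fold (1.26).

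The members made at high levels in untreated cells had smaller fitted changes. Cryab encodes alpha-B crystallin, a chaperone of desmin and filamin, and was the most abundant member in untreated cells at 78.4 and 81.0 FPKM in the untreated samples and 45.1 and 54.6 FPKM after 5-AZA. It was lower in both treated samples, at a change of -0.68 ± 0.11 that is less than 2-fold (adjusted p = 0.00257, limma). Its adjusted p was 0.0734 with no limit on low values and 0.0557 without 5-AZA replicate 101 (limma). Flnc, the filamin of muscle, was at 13.0 and 12.2 FPKM in the untreated samples and 14.8 and 18.7 FPKM after 5-AZA, and its change of 0.41 ± 0.14 did not pass the test (adjusted p = 0.0691, limma). Bin1, which shapes membranes and in muscle the transverse tubules, was at 32.8 and 29.7 FPKM in the untreated samples and 53.9 and 69.6 FPKM after 5-AZA. Its change of 0.97 ± 0.13 was just under the fold limit (adjusted p = 0.000911, limma), and it was called higher without 5-AZA replicate 101 (1.15) or without untreated replicate 1 (1.04). Over all alternatives its adjusted p lay between 0.000109 and 0.09 (limma).

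The make-up of the set differed between the groups. The 5 most abundant members of untreated cells held 84.2% of the summed member FPKM there and 46.8% after 5-AZA. These 5 were chosen by their untreated levels, which makes their untreated share the largest that 5 members can have. The choice itself thus favours a lower share after 5-AZA. The summed level of all 47 went from 220 and 210 FPKM to 427 and 552 FPKM.

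At the pointed end of the thin filament, 3 of 4 members rose, beside 13.1% of all genes tested. Lmod2 and Lmod3 passed the limit only through their 5-AZA values and so had to differ. Leiomodins start actin filaments and tropomodulins cap them. Lmod3 was listed at 0 in both untreated samples and at 4.18 and 6.40 FPKM after 5-AZA (higher in 2 of 2 samples, adjusted p = 4.81e-06, limma). Lmod2 went from 0.00988 and 0.00960 to 2.39 and 3.86 FPKM, and Tmod1 from 0.0825 and 0.250 to 2.30 and 3.82 FPKM, with changes of 4.84 ± 0.33 and 3.60 ± 0.39. Tmod4, the skeletal tropomodulin, was at 0.138 and 0.0748 FPKM in the untreated samples and 0.0269 and 0.328 FPKM after 5-AZA. Its groups overlapped and its treated samples differed 12.2-fold, so that no direction can be given (0.19 ± 0.58, adjusted p = 0.856, limma).

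All 8 genes of assembly, turnover and stress response rose, beside 13.1% of all genes tested. Of the 8, 5 passed the limit only through their 5-AZA values and so had to differ: Ankrd2, Smyd1, Unc45b, Trim55 and Capn3. Ankrd1, a stretch-responsive ankyrin repeat protein that binds titin, had the largest fitted change of the set at a pseudocount of 0.1 FPKM. At 0.01 FPKM that of Mybph was the largest. Ankrd1 was at 0.157 and 0.125 FPKM in the untreated samples and 28.0 and 38.0 FPKM after 5-AZA, a change of 7.09 ± 0.22 (adjusted p = 2.98e-07, limma). Ankrd2, a relative of Ankrd1, went from 0.0224 and 0 to 1.56 and 2.34 FPKM. Smyd1, a methyltransferase, and Unc45b, a chaperone, both act in the folding and assembly of myosin. Smyd1 was at 0.0218 and 0.0957 FPKM in the untreated samples and 7.28 and 11.4 FPKM after 5-AZA, and Unc45b at 0.138 and 0.0324 FPKM in the untreated samples and 4.60 and 6.88 FPKM after 5-AZA. Their changes were 5.90 ± 0.33 and 5.01 ± 0.35 (adjusted p = 5.32e-06 and 1.7e-05, limma).

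The muscle RING finger proteins are ubiquitin ligases of the sarcomere. Trim55 was listed at 0 in both untreated samples and at 2.13 and 2.01 FPKM after 5-AZA, and Trim54 went from 0.124 and 0.0812 to 1.27 and 1.91 FPKM. Trim63, the form that rises in muscle wasting, was at 0.346 and 0.545 FPKM in the untreated samples and 1.29 and 2.42 FPKM after 5-AZA. Its fitted change was the smallest of the 3, a difference that was not tested (1.81 ± 0.35, adjusted p = 0.00578, limma), and it lost its call after quantile normalization (1.04, adjusted p = 0.0703, limma). Capn3, the calpain of muscle, went from 0.0110 and 0 to 0.438 and 0.650 FPKM.

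Some calls of low members rested on a setting. With a pseudocount of 1 FPKM the changes of Myot, Capn3 and Trim63 were 0.56, 0.62 and 0.96, under the fold limit. With no limit on low values Tmod1 and Trim63 were not called (adjusted p = 0.0546 and 0.121, limma), nor were Mybpc1 and Myot with curated transcripts only (adjusted p = 0.148 and 0.0839, limma).

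The treated samples differed from each other. Of the 34 called members, 31 were higher in 5-AZA 102 than in 101, and so were 73.4% of all genes called higher. The exceptions among the members were Smpx, Trim55 and Myot. The ratio of 102 to 101 had a median of 1.49 over the called members (range 0.913 to 1.88), beside 1.21 over all genes called higher and 1.11 over all genes tested. Leaving out 5-AZA 101 or 102 kept the direction of all 34 but ended the call of Ldb3, Myoz1, Tmod1, Unc45b, Trim63 and Itgb1bp2 in either case, and that of Des without 102. Their adjusted p then lay between 0.0528 and 0.16 (limma), with a lone 5-AZA sample assumed to vary like the untreated pair.

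Transcript models showed which forms carried the members that were made in both groups. Of 126 member transcripts tested one by one, 37 were called higher and 0 lower, against 2.1% of 35557 transcripts called higher and 0.262% lower. Of the 126, 68 passed the limit of 0.1 FPKM only through their 5-AZA values and so had to differ, and 27 of them were called. The other 58 had an untreated mean at or above the limit, and 10 of them were called higher, beside 1.29% of the 31977 transcripts with such an untreated mean. Most of these calls were lost under some alternatives. The count was 0 of 250 with no limit on low values, 0 without 5-AZA 101 or without 102, 3 without untreated 1 and 2 without untreated 2. A change of a transcript relative to the rest of its gene was called for 0 of 107 member transcripts (limma), with 37 of them at an unadjusted p below 0.05, and in 0% of 30641 transcripts tested, of which 7.55% had such a p. The shares below are therefore descriptions, and FPKM of models that share most of their exons are estimates that depend on how reads were divided among them.

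In Fhl1 the forms differed. Its variant 2 (NM_001077362.2) was at 0.151 and 0.281 FPKM in the untreated samples and 31.5 and 36.4 FPKM after 5-AZA, while variant 3 (NM_010211.3) was at 18.3 and 16.3 FPKM in the untreated samples and 19.5 and 19.0 FPKM after 5-AZA. Variant 2 was called higher as a transcript and variant 3 was not. The minor model X10 was called higher too (XM_006527809.2, 0.0897 and 0.333 to 2.89 and 4.13 FPKM). Variant 2 made up 0.736% and 1.43% of the gene in untreated cells and 54.6% and 58.5% after 5-AZA. Its change relative to the rest of the gene was 6.39 ± 0.54 (log2, SE, adjusted p = 0.294, limma). With a pseudocount of 1 FPKM the use of 3 member transcripts was called, against 0.522% of all: variant 2 of Fhl1 higher, variant 3 lower (adjusted p = 0.00733 and 0.0294, limma) and Myom1 XM_006523787.3 lower (adjusted p = 0.0445, limma).

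Genes whose sum was not called also held forms with low levels in untreated cells. Fhl2 variant 2 (NM_001289533.1) went from 0.0669 and 0.0956 to 1.85 and 4.09 FPKM, while variant 1 (NM_010212.4) was at 11.9 and 9.05 FPKM in the untreated samples and 15.5 and 14.6 FPKM after 5-AZA. Pdlim7 variant c (NM_026131.4) went from 0.0139 and 0.0668 to 5.08 and 4.16 FPKM. The Bin1 models X16 (XM_006525991.3) and X19 (XM_006525994.3) were below 0.01 FPKM in untreated cells and at 4.37 and 6.65 FPKM and 3.64 and 6.24 FPKM after 5-AZA. Each of these 4 models was called higher as a transcript, but all 4 passed the limit only through their 5-AZA values and so had to differ. The leading models of Fhl2 and Bin1, NM_010212.4 and XM_006525995.3, were not called.

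**Figure D3:**
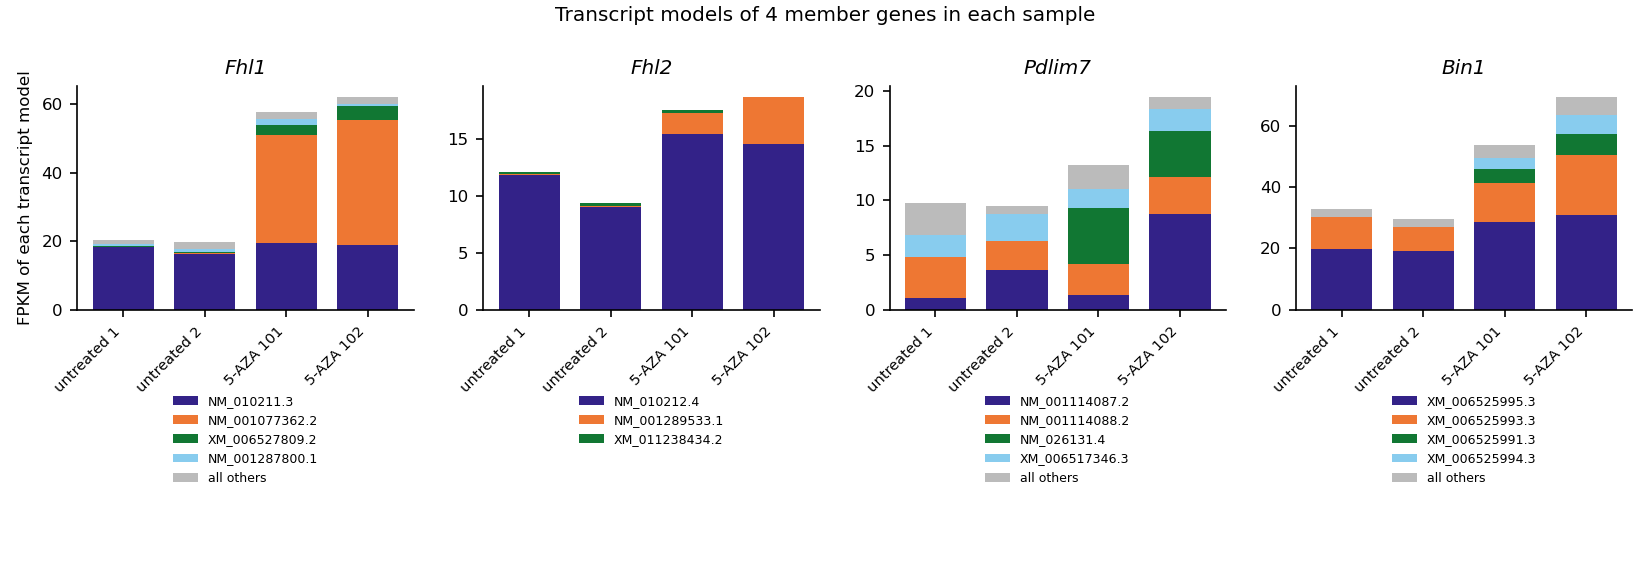
FPKM of the transcript models of Fhl1, Fhl2, Pdlim7 and Bin1 in each sample, stacked to the sum of the gene. In Fhl1, variant 2 (NM_001077362.2) is nearly absent from both untreated bars and the largest part of both 5-AZA bars.

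The level of Ttn was divided among 4 models. After 5-AZA the skeletal form N2-A (NM_011652.3) stood at 2.87 and 3.60 FPKM and the cardiac form N2-B (NM_028004.2) at 1.89 and 2.51 FPKM. N2-A was the higher of the pair in both treated samples, but both models share most of their exons. Ank1 was carried by variants 10 and 11, at 1.18 and 1.16 FPKM and 1.28 and 2.56 FPKM after treatment.

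The circular RNAs of member genes made up 0.21% of all circRNAs, and members are 0.215% of all genes. Of the 9, 4 came from Pdlim5, 3 from Ttn (1 of them antisense), 1 from Mybpc1 and 1 from Neb, and 7 (77.8%) were detected in 1 sample, beside 68.3% of all circRNAs. The Ttn circRNA_2434 (chromosome 2, 76853605 to 76856366, minus strand as listed) was at 0 in both untreated samples and at 0.0538 and 0.128 RPM (junction reads scaled to the size of the library) after 5-AZA. The Pdlim5 circRNA_2815 (chromosome 3, 142259130 to 142278001) was at 0.0968 and 0 RPM in untreated 1 and 2 and at 0 and 0.0213 RPM in 5-AZA 101 and 102. Taken as multiples of the step that the RPM values of a sample share, these stand for 5 and 12 reads of the first and 9 and 2 reads of the second. Neither was called (adjusted p = 0.16 and 0.993, limma), as was 0% of 1360 circRNAs tested. An unadjusted p below 0.05 was found for 251 of them, 91 with a positive and 160 with a negative change. On simulated reads with no change the same fit gave too many small p-values to circRNAs of few reads, and called some of them after adjustment, so this number is not read as a count of changes and calls of such circRNAs would not be either. A limma voom fit, chosen after seeing the data, called 0 and had a like excess of small p-values on simulated reads. The simulated reads held counting noise alone and no spread between cultures, so that they cannot show how a fit behaves with such spread. Of the circRNA fits run on them, the 1 without an excess of small p-values took circRNAs with a mean of at least 10 reads, a limit also chosen after seeing the data. It called 3 higher and 5 lower of 187, and no circRNA of a member reached that limit. Of the 381 circRNAs found in all 4 samples, none of them from a member, a fit of these alone gave 8 calls, 7 of them lower. Positions are printed as listed. Of 2356 host transcripts, 85.9% lay inside the gene of that name in GRCm38.p6, while the labels name mm9.

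Genes that work beside the members were counted in the same fit. Of 28 further genes of the sarcomere, Z disc and M band, 26 were tested, 18 rose and 0 fell, against 13.1% of all genes called higher. The median change of the 28 was 2.00. Both 5-AZA samples lay above both untreated samples in 18 of the 28 and below them in 4. These 4, Pgm5, Fbxo32, Synm and Bag3, changed by less than 2-fold. Pgm5 was the most abundant of the 28 in both untreated samples, at a change of -0.58 ± 0.10 (adjusted p = 0.00389, limma). That of Fbxo32 was -0.48 ± 0.12 (adjusted p = 0.0193, limma). Synm and Bag3 did not pass the test (adjusted p = 0.0537 and 0.274, limma). The largest changes were those of Klhl41, which stabilizes nebulin (0.205 and 0.0644 to 10.2 and 13.2 FPKM), the small heat shock protein Hspb1 (0.0499 and 0.187 to 6.21 and 9.17 FPKM), the Z disc protein Synpo2l (0 and 0.0133 to 2.70 and 4.4 FPKM) and the muscle splicing factor Rbm24 (0 and 0 to 1.52 and 1.43 FPKM). The changes of Klhl41, Hspb1 and Synpo2l were 5.71 ± 0.32, 5.20 ± 0.35 and 5.06 ± 0.33, and the 4 genes had adjusted p from 5.41e-06 to 4.1e-05 (limma). Of the 18 called, 13 passed the limit only through their 5-AZA values and so had to differ, Synpo2l and Rbm24 among them. The other calls were Klhl41, Hspb1, Hspb2, Hspb8 and Sync. Of the 12130 genes with an untreated mean at or above the limit, 7.41% were called higher. Klhl41 and Hspb1 were not called without either 5-AZA sample, with adjusted p between 0.0557 and 0.0764 (limma). Over the alternatives the count of the list lay between 6 and 18. The 6 came with a mean of at least 1 FPKM, where 14 genes of the list were tested.

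Many members have paralogs that serve other cells. Of 23 paralogs, 3 were called higher and 0 lower. The share called higher was 13%, beside 13.1% of all genes tested, and their median change was -0.13. In 7 paralogs both 5-AZA samples lay above both untreated samples, and in 11 below. Among all genes tested these shares were 36.8% and 25.4%. All 23 had an untreated mean at or above the limit, and of all genes with such a mean 7.41% were called higher. The 3 that rose were Pdlim4 (0.193 and 0.226 to 1.87 and 4.41 FPKM), Pdlim1 (0.285 and 0.221 to 1.57 and 3.22 FPKM) and Csrp2 (55.7 and 39.4 to 94.3 and 95.1 FPKM). Csrp2, at a change of 1.01 ± 0.15, lost its call after centring (0.91), after quantile normalization (0.96) and under 5 other alternatives, and the count of the list lay between 0 and 4. The following were chosen after their values were seen. Vim, the intermediate filament gene of mesenchymal cells, was at 2268 and 2406 FPKM in the untreated samples and 1178 and 1380 FPKM after 5-AZA, so that Des stood far below it in each sample. Actn1, the alpha-actinin of non-muscle cells, was at 33.1 and 29.0 FPKM in the untreated samples and 18.6 and 24.5 FPKM after 5-AZA. Actn3 and Actn2 together were below Actn1 in 5-AZA 101 and in 102. Tmod3, the general tropomodulin, was at 54.5 and 52.6 FPKM in the untreated samples and 55.7 and 49.0 FPKM after 5-AZA.

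**Figure D4:**
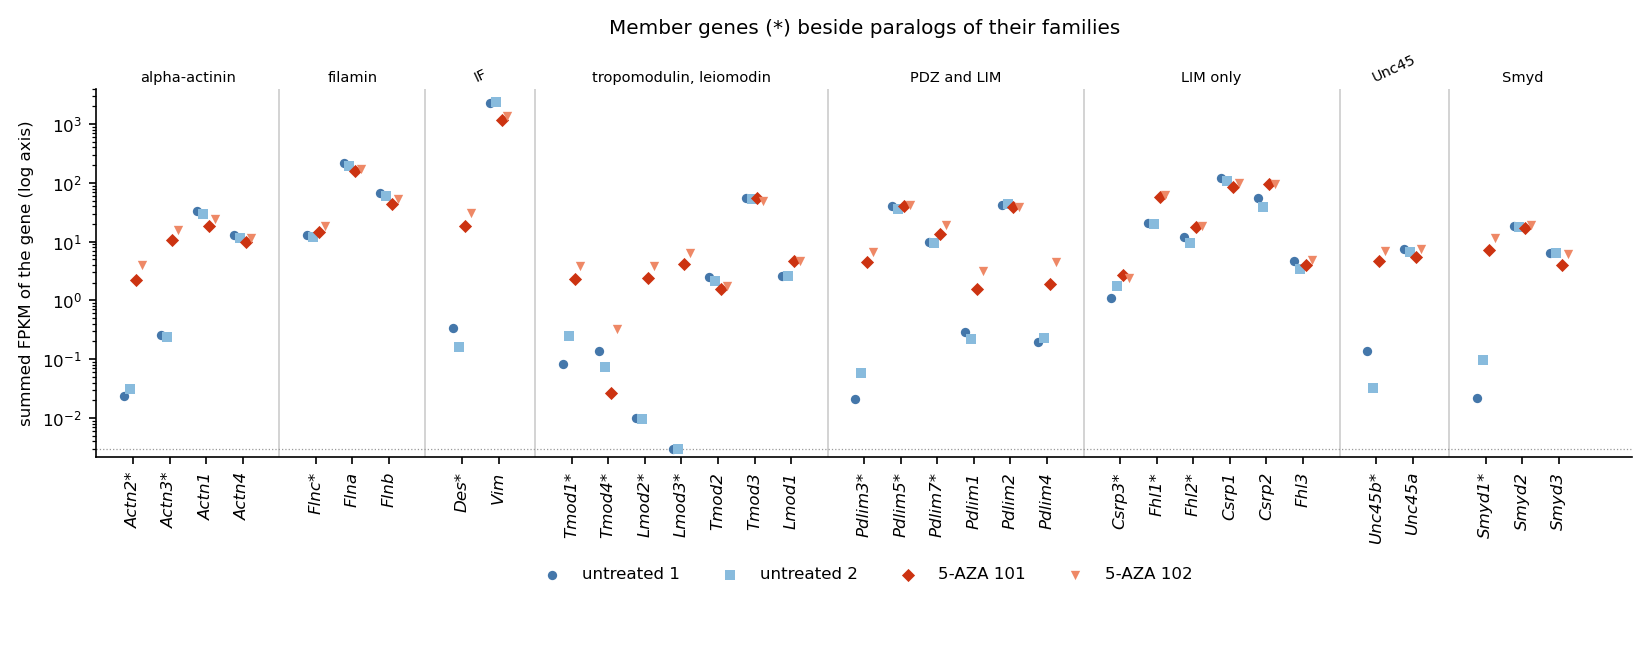
Summed FPKM (log axis) of members (marked *) and of their paralogs outside the striated sarcomere in the 4 samples, by family. Values below 0.003 FPKM are drawn at 0.003. The 4 points of Tmod3 nearly coincide and those of Vim are lower after 5-AZA, while Des, Actn2 and Lmod3 are low in the untreated pair.

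Markers of several cell types moved in the same samples, and their part in the changes of the members was not tested. The counts stand beside 13.1% of all genes tested called higher and 1.32% called lower. Among the markers called, Myod1, Myog, Mymk, Myh6, Cnn1 and Cidec passed the limit only through their 5-AZA values and so had to differ. Over the alternatives the count of the myogenic regulators lay between 2 and 4, that of the cardiac markers between 1 and 3 and that of the smooth muscle markers between 1 and 2. Of 8 myogenic regulators 4 rose, with Myog going from 0.0806 and 0.101 to 33.0 and 52.4 FPKM and Mymk from 0.115 and 0 to 13.0 and 22.8 FPKM, while Myf5 and Myf6 were listed at 0 in all samples. The summed level of the 8 was 28.6 and 26.9 FPKM in the untreated samples and 90.8 and 125 FPKM after 5-AZA. Mef2a was the most abundant in both untreated samples and Myog in both 5-AZA samples, and Myod1 and Mef2c were the others called. Of 10 cardiac markers 2 rose, Tnni3 (0.321 and 0.273 to 1.27 and 3.12 FPKM) and Myh6 (0.309 and 0.385 FPKM after 5-AZA), and Nppa, Nppb, Myl7, Tbx5 and Hand2 were listed at 0 in all 4 samples. Their sum was 2.45 and 2.54 FPKM in the untreated samples and 4.16 and 6.65 FPKM after 5-AZA, with Gata4 the most abundant except in 5-AZA 102, where Tnni3 was. Of 6 smooth muscle markers 2 rose, Tagln and Cnn1, and their sum was 193 and 198 FPKM in the untreated samples and 213 and 296 FPKM after 5-AZA, with Acta2 the most abundant in all 4 samples.

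Of 5 adipocyte markers 4 rose, Cidec, Plin1, Fabp4 and Adipoq, of which Cidec alone was called without 5-AZA 101 or without 102. Their sum with Pparg was 42.6 and 27.8 FPKM in the untreated samples and 1030 and 1415 FPKM after 5-AZA, with Fabp4 the most abundant except in untreated 2, where Pparg was. Of 4 chondrocyte markers 3 fell, Col2a1, Matn1 and Sox9. Col2a1 kept its call under all alternatives, while Matn1 lost it under 5 of 11 and Sox9 with no limit on low values. The sum of the 4 was 91.5 and 80.0 FPKM in the untreated samples and 12.1 and 18.3 FPKM after 5-AZA, with Col2a1 the most abundant in both untreated samples and Sox9 in both 5-AZA samples. Of 6 markers of the mesenchymal line 1 rose, Thy1, and the sum was 1459 and 1395 FPKM in the untreated samples and 1733 and 1853 FPKM after 5-AZA. The most abundant in all 4 samples was Col3a1, at 676 and 686 FPKM in the untreated samples and 1153 and 1191 FPKM after 5-AZA, while Col1a1 (118 and 92.4 FPKM in the untreated samples and 64.1 and 83.0 FPKM after 5-AZA) and Col1a2 (600 and 557 FPKM in the untreated samples and 420 and 475 FPKM after 5-AZA) were lower in both treated samples. None of these 3 passed the fold limit (adjusted p = 0.0007, 0.0402 and 0.0381, limma), and Col1a1 and Col1a2 were chosen after their values were seen. Of 4 immune markers 1 was called, Cd68, and it lost the call under 9 of the 12 alternatives, centring among them (0.99). The immune markers had a sum of 3.56 and 4.05 FPKM in the untreated samples and 5.44 and 6.93 FPKM after 5-AZA, with Cd14 the most abundant except in 5-AZA 102, where Cd68 was, and Adgre1 was listed at 0 in all samples.

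The share of calls that point up depended on scaling. Over all genes 1724 were called higher and 174 lower, so that 90.8% of the calls were higher, and 1041 were called higher and 886 lower (54% higher) after quantile normalization, which moved the median change of all genes by -0.17. Centring on the sample medians moved it by -0.11. Of the members, 33 were called higher and 1 lower (Nebl) after quantile normalization, and 34 higher and 0 lower after centring.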

How the data were processed

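RNA of 2 untreated and 2 5-AZA treated samples of C3H10T1/2 cells was compared. The FPKM values per RefSeq transcript were made by the authors from stranded libraries depleted of ribosomal RNA, with reads trimmed by Trimmomatic. The RPM values of circRNA junction reads were made by the authors from the same libraries, with a caller that is not stated. The labels name HISAT2, Bowtie2 2.2.9 and eXpress 1.5.1 without saying which made which values. Long noncoding RNAs were not used here.

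FPKM were summed per gene. Genes with a mean of at least 0.1 FPKM were fitted as log2(FPKM + 0.1) with limma 3.58.1 (lmFit, eBayes with trend) in R 4.3.3 with the package data.table (version 1.17.8), and p-values were adjusted by Benjamini-Hochberg over all genes tested. A call needed an adjusted p below 0.05 and a change over 2-fold. Transcripts were fitted in the same way, and so was transcript use, as the log2 ratio of a transcript to the rest of its gene. CircRNAs detected in at least 2 samples were fitted as log2 RPM with the smallest RPM above 0 added. Tables and plots used Python 3.11.15, pandas 2.3.3, numpy 2.4.6 and matplotlib 3.10.9.

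The fits were tested on simulated data, in which circRNA reads varied by counting noise alone. For circRNAs of few reads, simulated without change, p-values were too small too often and false calls were made after adjustment, and a limit of a mean of 10 reads was therefore added after seeing the data. Members and lists were chosen with earlier results of these data known. All members are accounted for, and full values are given for members called, for the most abundant and for those that moved against the rest. From each other list the called genes with the largest changes were named, at most 4, and from marker lists also the most abundant marker and those listed at 0 in all samples. Other genes named from the lists were chosen after their values were seen. Lists held other sarcomere genes, paralogs, and markers of myogenic, cardiac, smooth muscle, mesenchymal, adipocyte, chondrocyte and immune cells. Alternatives changed the pseudocount, the limit on low values, the scaling, the trend, the transcripts summed and the samples.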

Additional observations from a re-analysis of the deposited data

How the results depend on the processing

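The count of members called was 34 and lay between 25 and 34 under the 8 alternatives that kept all samples, and between 27 and 35 when 1 sample was left out. Of the 34, 17 were called higher under all 12 alternatives for gene sums and 21 under all that kept the 4 samples. Of the other 17, 10 lost the call under at least 1 alternative, and 7 kept it wherever they were tested but had no value under 1 of them. Over 516 member values under these alternatives, 484 kept their direction and side of the threshold, 21 lost the call, 6 gained one and 5 changed sign. The 3 members not tested are not among these values, and Xirp2 was called with no limit on low values. With a mean of at least 1 FPKM, 34 members were tested and 25 of them called, beside 845 of 10800 genes called higher. None of these 34 members changed its side of the threshold.

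Values that changed sign belonged to members not called. Pdlim5 was at -0.031 with curated transcripts only. Tmod4 was at -0.007 with a pseudocount of 0.01 FPKM and at -0.90 after quantile normalization, and between -0.69 and 1.07 with 1 sample left out.

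Over all genes, 1898 calls became 967 with a mean of at least 1 FPKM, 1262 with no limit on low values and 961 with a pseudocount of 1 FPKM, and 851 to 1797 with 1 sample left out. Calls among the other lists went from 38 of 79 genes tested to 22 of 62 with a mean of at least 1 FPKM, and were also fewer with 1 sample left out. Member transcripts called went from 37 to 0 with no limit on low values, and to between 0 and 3 with 1 sample left out. Transcript use was called for 3 with a pseudocount of 1 FPKM and for 0 otherwise. Over all circRNAs, 0 calls became 8 with detection in all 4 samples, 3 with detection in any sample, and 8 with a mean of at least 10 reads, a limit chosen after seeing the data. CircRNAs of members have no value under detection in all 4 samples or the limit of 10 reads. The causes were not tested. The planned edgeR alternative was not run. Leaving out 1 sample leaves a group of 1, which is assumed to vary like the other group.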
